A study of Mus musculus with 2 samples.

Results

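The genes described here are 38 skeletal muscle genes, out of 43346 Ensembl genes quantified in 2 RNA-seq libraries of mouse embryonic hindbrain. They hold 4 myogenic transcription factors, 12 thin filament genes, 10 thick filament genes, 4 Z disc and scaffold genes, 6 calcium-handling genes and 2 genes of energy and oxygen supply. The members were picked because muscle genes had been seen to differ strongly between these libraries. The expected counts and TPM that give the ratio of replicate 1 over replicate 2 therefore chose them, and that ratio is given as a description with no test. All 38 symbols matched 1 gene each, and all 38 had at least 10 counts in a replicate. In replicate 2 alone, 28 had at least 10 counts and 10 had fewer.

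Both libraries belong to 1 group, the hindbrain of B6NCrl mice at embryonic age 16.5 day, with male and female embryos pooled and no treatment or altered allele in the labels. The pool of replicate 2 came from 37 embryos, and for replicate 1 the labels used here do not say how many were pooled. Each library was made from 10 ng of RNA longer than 200 nucleotides, extracted with the Ambion mirVana kit. Spike-in RNA was added, and a linked document covers the SMARTer Ultra Low kit, which amplifies cDNA from small inputs. Each value rests on whole pooled tissue, so fewer muscle cells and less muscle RNA per cell cannot be told apart.

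The libraries were of like depth, with 42467811 expected counts in replicate 1 and 42017008 in replicate 2, of which 2.18% and 1.59% were spike-ins. Of 17 hindbrain genes such as Hoxb5 and Gbx2, 16 reached 1 TPM in both libraries and 0 differed by over 2-fold, with a median log2 ratio of 0.01. The libraries stood apart in another respect. Of 12 forebrain genes with enough counts, 10 were over 2-fold higher in replicate 1, with a median log2 ratio of 4.97. Whether that difference and the one in muscle genes have a common source was not tested. With 2 libraries the smallest p that permuting them can give is 0.5, so no p-value is given anywhere.

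Skeletal muscle fibres form when myoblasts, under the myogenic factors Myf5, MyoD, myogenin and MRF4, leave the cell cycle, fuse and build sarcomeres. A sarcomere pairs actin-based thin filaments, which carry tropomyosin and troponin, with myosin-based thick filaments, and both are anchored and measured by Z disc proteins and giant scaffolds. Many of these proteins come in developmental, fast and slow forms from separate genes, and fibres exchange the embryonic and neonatal forms for fast or slow ones as they mature. Hindbrain itself is neural tissue and builds no sarcomeres.

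Most of these genes were far higher in replicate 1, and Myf6 alone was listed at 0 in replicate 2. Their levels summed to 613 TPM in the first library and 57.2 TPM in the second, where TPM is a length-corrected share of all transcripts. They took 0.0556% of gene counts in the first library and 0.00676% in the second. Fold differences were taken from expected counts scaled with TMM, and their exact 95% intervals cover counting error only. The summed counts were 8.17-fold higher in replicate 1, with an interval of 7.86 to 8.50. Of the 38 genes, 32 were over 2-fold higher in replicate 1, 31 of them over 4-fold, and 0 were over 2-fold higher in replicate 2. Over all 19139 genes that had 10 or more counts in either library, 2.82% passed 2-fold and 1.01% passed 4-fold toward replicate 1, and 4.27% passed 2-fold toward replicate 2. Deposited TPM intervals did not overlap for 32 members, all higher in replicate 1, where over all genes 17.3% were apart in that direction and 8.87% in the other. Since the ratio chose the members, nothing is read from that contrast.

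**Figure D1:**
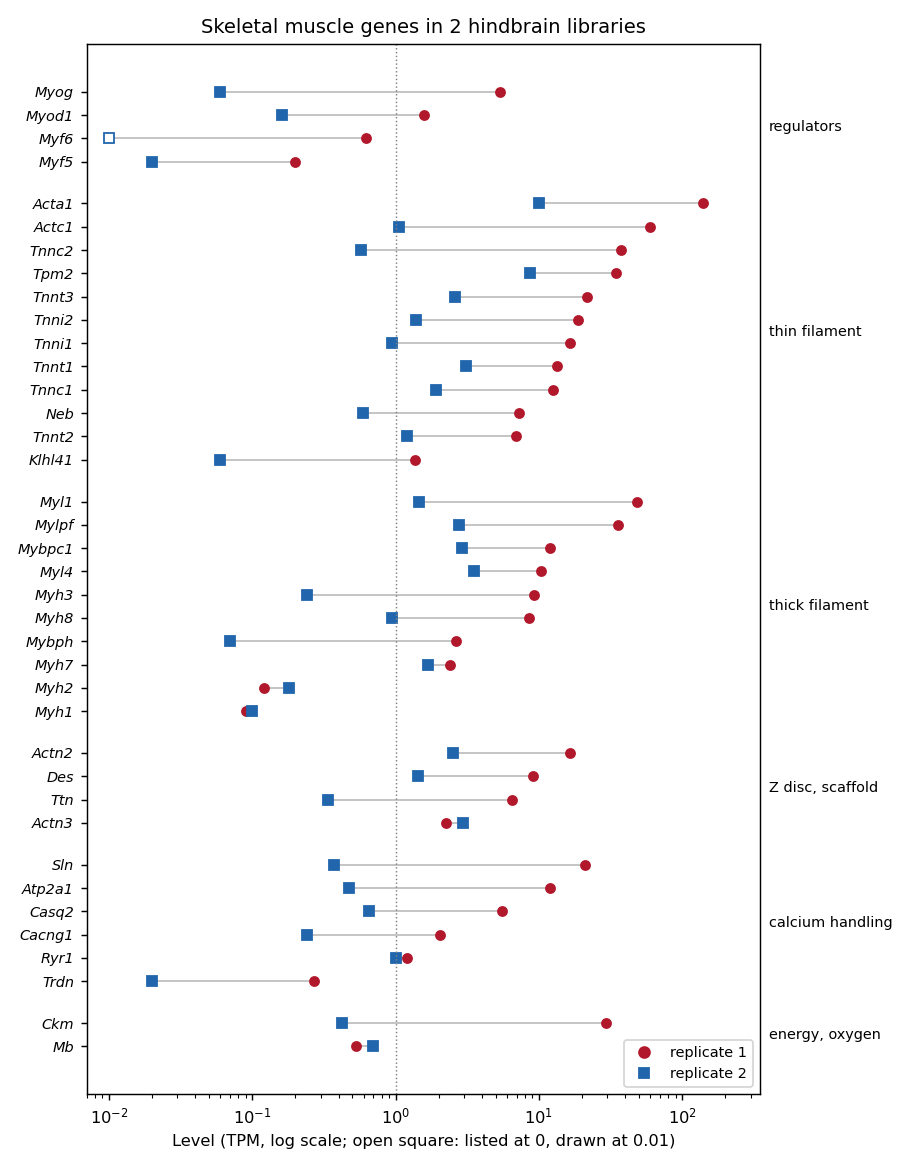
Level of each of the 38 muscle genes in TPM (log scale) in replicate 1 (red circles) and replicate 2 (blue squares), grouped by role; the open square is Myf6, listed at 0 and drawn at 0.01. For 32 genes the circle lies far to the right of the square, and for Myh7, Myh2, Myh1, Actn3, Ryr1 and Mb the symbols lie close together.

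The signal in replicate 2, called residual here, was spread over many of the genes, and whether it came from skeletal muscle was not tested. For Actn3, at 2.26 TPM in replicate 1 and 2.95 TPM in replicate 2, it was not a lower level. There 17 of the 38 reached 1 TPM, against 32 in replicate 1. Acta1 was the highest at 9.94 TPM (deposited interval 8.68 to 10.7) and Tpm2 came next at 8.71 TPM (8.02 to 12.1), with intervals that overlap. Myl4 followed at 3.50 TPM (2.76 to 4.67), below Tpm2 with intervals apart, and Tnnt1, Actn3, Mybpc1, Mylpf, Tnnt3 and Actn2, from 3.09 down to 2.52 TPM, were not separated from Myl4 beyond their intervals. The residual level as a percentage of replicate 1 ran from 1.07% for Myog and 1.46% for Ckm to 30.4% for Myl4 among the genes past 2-fold with any counts. It was 7.37% for Acta1 (interval 6.59% to 8.23%), 2.71% for Myh3 (1.90% to 3.76%), 11.6% for Myh8 (9.74% to 13.8%) and 21.5% for Tpm2 (18.8% to 24.5%).

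The observed size of the difference was not the same for all members, and the counting intervals leave out variation between library preparations. Of the 38 counting intervals, 14 lay above the summed 8.17-fold ratio, 11 lay below it and 13 held it. The median log2 ratio was 3.24, from -0.42 for Myh2 to 6.23 for Myog. The median residual level in replicate 2 was 10.1% of the level in replicate 1. The genes near equality were Myh1, Myh2, Myh7, Actn3, Ryr1 and Mb, so the working description of these genes as uneven between pools holds for 32 of 38. The most abundant genes also differed, since of the 10 genes with the highest TPM in each library 4 were shared, namely Acta1, Tpm2, Mylpf and Tnnt3.

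**Figure D2:**
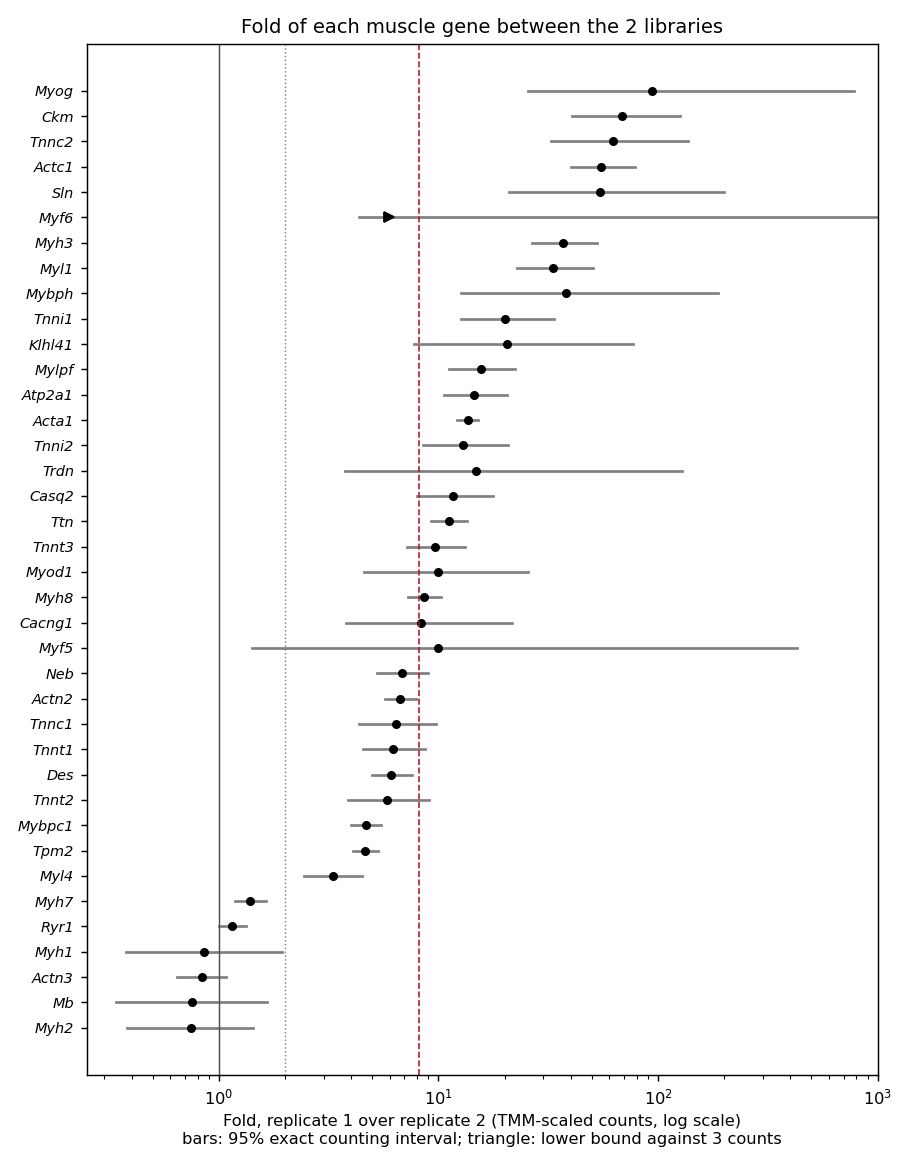
Fold of replicate 1 over replicate 2 for each gene (log scale), ordered by size, with bars for the 95% exact counting interval; the triangle is the lower bound for Myf6 against 3 counts, the solid line is equality, the dotted line 2-fold and the dashed line the 8.17-fold ratio of summed counts. The points run from 0.743 for Myh2 to 93.6 for Myog, and the bars at the ends do not cover the dashed line.

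Of the myogenic regulators, Myog and Myod1 reached 1 TPM in replicate 1 and none of the 4 did so in replicate 2. Myog (chromosome 1, 134289989 to 134292548, plus strand) encodes myogenin, which drives the terminal differentiation of myoblasts. It had 5.39 TPM from 189 counts in replicate 1 and 0.06 TPM from 2 counts in replicate 2, a ratio of 93.6 (interval 25.5 to 778). Myod1, which encodes the determination factor MyoD, had 1.59 TPM from 70 counts and 0.16 TPM from 7 counts, a ratio of 9.90 (interval 4.56 to 25.5). Both were higher in the first library than in the second, where they were close to absent, and their deposited TPM intervals did not overlap between the libraries.

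Myf5, the earliest factor of the family in the mouse, had 10 counts in replicate 1 and 1 in replicate 2, a ratio of 9.90 with a wide interval of 1.41 to 430. Myf6, which encodes MRF4 and acts late in fibre maturation, had 18 counts and 0 counts. Taking the 0 as 3 counts in that library, Myf6 was at least 5.94-fold higher in replicate 1. The lower bound of its own counting interval was 4.35. Myf5 and Myf6 lie side by side on chromosome 10, with 6719 bases between them. Within replicate 1 the late factor myogenin exceeded MyoD 3.39-fold in TPM with intervals apart, and Myf5 was 7.95-fold below MyoD. Within replicate 2 the intervals of Myog and Myod1, at 0.06 and 0.16 TPM, overlapped.

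The thin filament genes were the most abundant group, and all 12 were over 4-fold higher in replicate 1. Their summed level was 370 TPM in replicate 1 and 32.0 TPM in replicate 2, with a median log2 ratio of 3.46. Acta1 (chromosome 8, 123891769 to 123894751, minus strand), the actin of adult skeletal muscle, led both libraries, with 139.5 TPM from 4671 counts in replicate 1 and 9.94 TPM from 341 counts in replicate 2. Its ratio was 13.6, with an interval of 12.1 to 15.2. Actc1 (chromosome 2, 114047282 to 114053548, minus strand), the cardiac actin that developing skeletal muscle also makes, had 59.9 TPM from 2065 counts and 1.05 TPM from 37 counts, a ratio of 55.3 (interval 40.0 to 78.7). The counting intervals of both actins do not touch, so their ratios differed by more than counting error. Variation between library preparations is not covered by these intervals, so whether the actins shared a common factor cannot be decided.

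The upstream sequences of both actins are shown because they were the members with a CArG box, the site of serum response factor, within the 250 bases before the start site. The runs read 5′ to 3′ on the gene's own strand, are from RefSeq on GRCm38.p6, and hold no annotated exon. The Actc1 run lies within the annotated span of the gene, directly before the start of Actc1-201. Capitals mark the CArG box in both and, in Acta1, also a CAGCTG E-box and a TATAAA box; Acta1 is chr8:123894776-123895025 and Actc1 is chr2:114052888-114053125, both minus strand.
Acta1: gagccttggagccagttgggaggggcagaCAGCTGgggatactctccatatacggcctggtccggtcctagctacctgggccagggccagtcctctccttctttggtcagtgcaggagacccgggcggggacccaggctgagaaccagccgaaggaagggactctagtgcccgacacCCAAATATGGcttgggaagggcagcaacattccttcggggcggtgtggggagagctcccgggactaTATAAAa
Actc1: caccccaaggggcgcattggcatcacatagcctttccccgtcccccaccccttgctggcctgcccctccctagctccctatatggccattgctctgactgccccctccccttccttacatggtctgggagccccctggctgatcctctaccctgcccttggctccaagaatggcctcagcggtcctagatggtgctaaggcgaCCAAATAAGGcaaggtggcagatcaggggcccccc

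RefSeq upstream sequences were found for 29 of the 38 genes. Within 250 bases upstream, CAGCTG, a palindromic E-box of the kind that myogenic factors bind, occurred in 13 of the 29 genes (44.8%) and in 14.7% of 27025 genes with such a sequence. The MEF2 box was searched on both strands as the strict pattern CTAWWWWTAR, with W for A or T and R for A or G. It occurred in 5 genes (17.2%) against 1.99%, namely Casq2, Klhl41, Myh1, Myh8 and Ttn. The CArG box, also on both strands, occurred in 2 genes (6.90%) against 1.62%, and TATAAA on the forward strand in 4 genes (13.8%) against 8.94%. Such matches describe letters in a window and are not evidence of binding, and a window without a match says only that these exact letters are not in it. The window of Myog had no match, although it holds ctatatttat, which misses the MEF2 pattern by its last base. Genes with and without a match were found on both sides of the range of ratios. Myh1 with a MEF2 box had a ratio of 0.858 and Ttn with a MEF2 box one of 11.1. Myh2 and Myog, without any of these matches, had ratios of 0.743 and 93.6.

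The troponin complex makes the thin filament respond to calcium, with troponin C as its sensor, troponin I as its inhibitor and troponin T as its link to tropomyosin. Tnnc2, fast troponin C, had 37.6 TPM in replicate 1 and 0.57 TPM from 9 counts in replicate 2, a ratio of 62.5 (interval 32.7 to 137). Tnnc1, the slow and cardiac form, had 12.6 and 1.91 TPM, a ratio of 6.44 (interval 4.37 to 9.79). The fast form was thus the higher of the pair in replicate 1, 2.99-fold with intervals apart, and the lower in replicate 2, where the intervals overlapped.

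Tnni1, slow troponin I, had 16.4 and 0.95 TPM, a 20.1-fold ratio with an interval of 12.7 to 33.7. Tnni2, fast troponin I, had 18.9 and 1.38 TPM, a 13.0-fold ratio with an interval of 8.47 to 20.8. Fast and slow troponin I did not differ beyond their deposited intervals in either library. Of the troponin T genes, fast Tnnt3 had 21.5 and 2.58 TPM, slow Tnnt1 13.3 and 3.09 TPM, and Tnnt2, the cardiac form that embryonic skeletal muscle also makes, 6.87 and 1.21 TPM. Their ratios were 9.62, 6.20 and 5.83.

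Tpm2, which encodes beta-tropomyosin, had 34.3 TPM in replicate 1 and the second highest level of all members in replicate 2, at 8.71 TPM, a ratio of 4.65 (interval 4.08 to 5.31). Neb, which encodes nebulin, the ruler protein of the thin filament, had 7.29 and 0.59 TPM, a ratio of 6.83. Klhl41, which encodes a protein that stabilises nebulin, had 83 counts and 4 counts, a ratio of 20.5 (interval 7.73 to 77.2). Among the 12 thin filament genes the ratio therefore ran from 4.65 for Tpm2 to 62.5 for Tnnc2.

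The thick filament genes held both the widest contrast between isoforms and 3 of the 6 genes near equality. Myh3, the embryonic myosin heavy chain, had 9.28 TPM from 1378 counts in replicate 1 and 0.24 TPM from 37 counts in replicate 2, a ratio of 36.9 (interval 26.6 to 52.6). Myh8, the neonatal heavy chain, had 8.48 TPM from 1267 counts and 0.95 TPM from 146 counts, a ratio of 8.59 (interval 7.23 to 10.3). Embryonic and neonatal heavy chains lay level in the first library, at 1.09 with overlapping intervals, whereas Myh8 exceeded Myh3 3.96-fold in the second with intervals apart.

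Myh7, the slow heavy chain that is also the beta form of the heart, had 2.41 TPM from 364 counts and 1.67 TPM from 259 counts, a ratio of 1.39 (interval 1.18 to 1.64). The adult fast chains were near the limit of detection in both libraries, with 13 and 15 counts for Myh1 (type 2X) and 18 and 24 counts for Myh2 (type 2A). In replicate 1 Myh3 exceeded Myh7 3.85-fold and Myh8 exceeded it 3.52-fold, with intervals apart. In replicate 2 the order was turned, with Myh7 exceeding Myh3 6.96-fold and Myh8 1.76-fold, again with intervals apart. These were the only 2 of 18 gene pairs whose order was reversed with separate intervals in both libraries.

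The heavy chain genes resemble each other in sequence, which bears on how reads can be assigned. Myh3, Myh2, Myh1 and Myh8 lie in this order on the plus strand of chromosome 11, between 67078300 and 67308634. To show their likeness, an aligned window of 75 coding bases is given 5′ to 3′ from GENCODE M21 on GRCm38. It was the window, of 38 along the coding sequence, whose identity came nearest to the mean of 84.1%. Capitals mark bases unlike Myh8, of which there are 17 in Myh3, 6 in Myh1, 7 in Myh2 and 18 in Myh7. The windows lie at chr11:67279905-67279979 for Myh8, chr11:67082297-67082371 for Myh3, chr11:67202189-67202263 for Myh1 and chr11:67173440-67173514 for Myh2, all plus strand, and at chr14:54992294-54992368, minus strand, for Myh7.
Myh8: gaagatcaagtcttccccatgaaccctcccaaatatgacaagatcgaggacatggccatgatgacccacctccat
Myh3: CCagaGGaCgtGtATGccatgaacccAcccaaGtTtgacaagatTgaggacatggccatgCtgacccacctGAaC
Myh1: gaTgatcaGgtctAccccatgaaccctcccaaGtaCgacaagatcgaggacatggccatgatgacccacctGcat
Myh2: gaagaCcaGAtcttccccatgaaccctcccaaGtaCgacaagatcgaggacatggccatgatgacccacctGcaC
Myh7: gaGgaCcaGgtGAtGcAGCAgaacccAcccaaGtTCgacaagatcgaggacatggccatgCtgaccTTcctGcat

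Over the whole coding sequence, Myh8 was 89.3% identical to Myh1 and to Myh2, 80.8% to Myh3 and 77.2% to Myh7. Stretches of 31 bases found also in another gene made up 40.2% of Myh1, 38.5% of Myh2, 32.5% of Myh8 and 32.4% of Myh7, nearly all of the last shared with cardiac Myh6. For Myh3 that share was 11.2%. The counts of Myh1, Myh2, Myh7, Myh8 and, to a lesser degree, Myh3 therefore depend on how the authors' model divided shared reads, and those of Myh1 and Myh2 are too few to judge. Myh6 itself stood at 0.16 and 0.21 TPM, both below the deposited interval in their own library. Myl1 shared 38.7% of such stretches with the pseudogene Mylf-ps, while 0.832% of Actc1 and 4.45% of Acta1 occurred elsewhere.

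Of the light chains, Myl1, the fast essential light chain, had 48.6 TPM from 942 counts and 1.46 TPM from 28 counts, a ratio of 33.3 (interval 22.9 to 50.4). Myl4, the embryonic and atrial essential light chain, had 10.3 and 3.50 TPM, a ratio of 3.29 (interval 2.44 to 4.50), the lowest of the 32 genes past 2-fold. Mylpf, the fast regulatory light chain, had 35.9 and 2.77 TPM, a ratio of 15.6. Myl1 thus exceeded Myl4 4.71-fold in the first library with intervals apart, while in the second Myl4 was nominally 2.40-fold higher with overlapping intervals.

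Myosin-binding protein C spans and steadies the thick filament. Mybpc1, its slow form, had 11.9 and 2.89 TPM, a ratio of 4.67 (interval 4.01 to 5.47). It exceeded the fast form Mybpc2 99.2-fold in replicate 1 and 26.3-fold in replicate 2, with intervals apart in both. Mybph, which encodes the related protein H, had 115 counts and 3 counts, a ratio of 38.0 (interval 12.7 to 187). Mybph and Myog are neighbours on chromosome 1, with 88757 bases and no other coding gene between them.

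Among the Z disc and scaffold genes, Actn2 and Actn3 behaved differently. Actn2, which encodes the alpha-actinin that crosslinks actin at the Z disc of all fibres, had 16.4 TPM and 2.52 TPM, a ratio of 6.68 (interval 5.69 to 7.87). Actn3, the fast-fibre alpha-actinin, had 2.26 TPM from 113 counts and 2.95 TPM from 134 counts, a ratio of 0.835 (interval 0.644 to 1.08) that holds equality. Actn2 was 7.24-fold above Actn3 in replicate 1, whereas in replicate 2 the intervals of both overlapped.

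Des, which encodes desmin, the intermediate filament that ties Z discs together, had 9.14 and 1.43 TPM, a ratio of 6.10. Ttn, which encodes titin, the spring that spans a sarcomere from Z disc to M line, had 1360 and 121 counts, a ratio of 11.1 (interval 9.23 to 13.5). Its TPM of 6.45 and 0.34 is less certain, since the value for replicate 2 lay below its own deposited interval of 0.746 to 2.18. The TPM of Tnnt2, Tnnt3 and Myf6 in replicate 2 likewise lay outside their intervals.

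Of the 6 calcium-handling genes 5 were over 4-fold higher in replicate 1, and Ryr1 was the exception. Sln, which encodes sarcolipin, a small inhibitor of the calcium pump, had 21.0 TPM from 219 counts in replicate 1 and 0.37 TPM from 4 counts in replicate 2, a ratio of 54.2 (interval 20.9 to 201). Atp2a1, which encodes the fast-fibre calcium pump SERCA1 that sarcolipin acts on, had 12.0 and 0.47 TPM, a ratio of 14.6 (interval 10.6 to 20.5). Casq2, the slow and cardiac calsequestrin that stores calcium, had 5.53 and 0.65 TPM, a ratio of 11.6. Casq2 and the fast form Casq1, at 4.65 and 1.23 TPM, did not differ beyond their intervals in either library.

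Cacng1, the gamma subunit of the skeletal voltage-gated calcium channel, had 59 and 7 counts, a ratio of 8.34 (interval 3.81 to 21.7). Trdn, which encodes triadin, an anchor of the calcium release complex, had 30 and 2 counts, a ratio of 14.9 (interval 3.77 to 128). Ryr1, the release channel of that complex, which cerebellar Purkinje cells also make, had 1.20 TPM from 461 counts and 1.01 TPM from 396 counts, a ratio of 1.15 (interval 1.01 to 1.32). The channel was thus nearly level between the libraries while the members Cacng1 and Trdn were not, and its direction turned under spike-in scaling. Of 12 other calcium release and excitability genes with enough counts, 2 were over 2-fold higher in replicate 1 and 10 were within 2-fold.

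The 2 genes of energy and oxygen supply went apart. Ckm (chromosome 7, 19404776 to 19422841), the muscle creatine kinase, stood at 29.3 TPM and 0.42 TPM, which is a residual level of 1.46% with an interval of 0.795% to 2.46%. Mb, which encodes myoglobin, the oxygen store of slow and cardiac muscle, had 13 counts and 17 counts, a ratio of 0.757 (interval 0.338 to 1.66). The interval holds equality and lies below the 8.17-fold ratio of the summed counts.

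Grouped by maturity of the isoform, the 5 developmental genes (Myh3, Myh8, Actc1, Myl4 and Tnnt2) had a median log2 ratio of 3.10, and their summed counts were 16.4-fold higher in replicate 1. The 9 fast genes had a median of 3.67 and a summed ratio of 9.95, with 6 of 9 over 2-fold. The 6 slow genes had a median of 2.64 and a summed ratio of 4.27, with 5 of 6 over 2-fold. Since the median put the fast class highest and the sum the developmental class, the order of those classes depends on the summary, while the slow class was lowest by both. That place depends on the genes listed, since Myh7 and Mybpc1 held 259 and 200 of the 582 slow counts in replicate 2. In troponin I the slow form had the nominally higher ratio, at 20.1 against 13.0, whereas in troponin C and T the fast form did. The counting intervals of fast and slow form were apart in troponin C only.

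**Figure D3:**
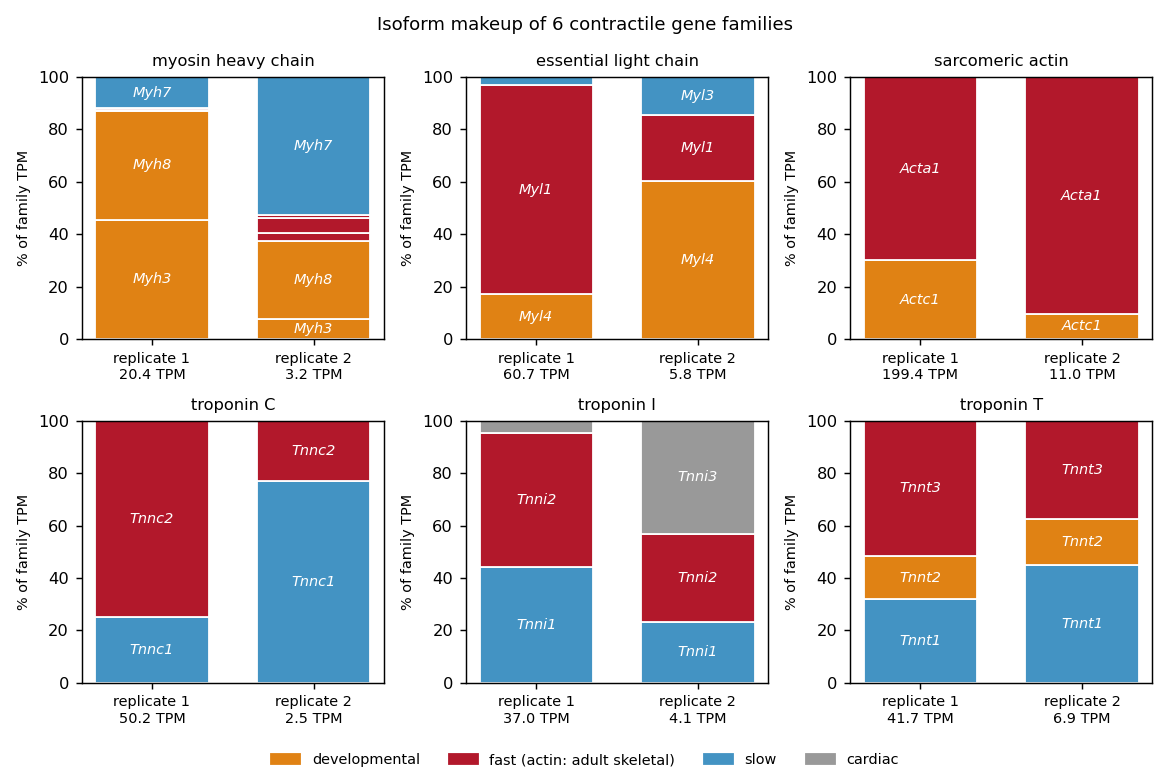
Share of each gene in the summed TPM of its family, in percent, for 6 contractile gene families in replicate 1 and replicate 2, coloured by isoform class, with the family's total TPM under each bar. Developmental heavy chains take 87.0% of the family in replicate 1 and 37.4% in replicate 2, and fast troponin C goes from 74.9% to 23.0%.

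Shares within a gene family show the mixture of forms inside each library. A change of share between the libraries restates the ratios that chose the members and is no separate result. Any gene that is level between the libraries gains share where the others were chosen for a lower level in replicate 2. Of the 6 heavy chain genes Myh1, Myh2, Myh3, Myh4, Myh7 and Myh8, the developmental pair took 87.0% of summed TPM in replicate 1 and 37.4% in replicate 2. Slow Myh7 took 11.8% and 52.5%, and the 3 adult fast genes together 1.18% and 10.1%. The larger fast share is one of proportion only, since their summed level was 0.24 TPM in the first library and 0.32 TPM in the second.

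Among essential light chains, Myl1 took 80.1% in replicate 1 and 25.2% in replicate 2, Myl4 17.0% and 60.3%, and slow Myl3 2.92% and 14.5%. Among actins, Acta1 took 70.0% and 90.4%. By these shares the residual mixture was poorer in embryonic actin and embryonic heavy chain but nominally richer in the embryonic light chain. In replicate 2 the deposited intervals of Myl4 and Myl1 overlapped, and Myl1 rested on 28 counts. Retained-intron transcripts held 48.4% of the TPM of Myl4 there. Fast troponin C took 74.9% and 23.0%. Fast troponin T took 51.6% and 37.5%, and slow troponin T 32.0% and 44.9%.

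Troponin I held a cardiac member that did not follow the others. Tnni3, at 1.76 and 1.77 TPM, made up 4.75% of troponin I in replicate 1 and 43.2% in replicate 2, although the value of 1.76 TPM lay below its deposited interval of 1.91 to 4.46. Tnni2 took 50.9% and 33.7%, and Tnni1 44.3% and 23.2%. In replicate 2 several families rest on few counts, such as 9 and 30 for the troponin C genes, so their shares there are coarse.

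Over all 18 pairs of isoforms or partner genes, deposited intervals were apart for 14 in replicate 1 and for 6 in replicate 2, and apart in the same direction in both for 3. Those 3 were Acta1 above Actc1, Tnnt3 above Tnnt2 and Mybpc1 above Mybpc2. The troponin T pair is less certain, since in replicate 2 the TPM of Tnnt3 and of Tnnt2 lay below their own deposited intervals. The 2.58 TPM of Tnnt3 there fell inside the interval of Tnnt2, 1.26 to 2.77 TPM. The nominal order was the same in both libraries for 8 pairs. The 38 genes had 23079 counts in replicate 1 and 2795 in replicate 2, so intervals were wider in the second library.

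Members that lie within 100000 bases of each other did not always have like ratios. In the heavy chain cluster Myh3 and Myh8, at 36.9 and 8.59, flank Myh2 and Myh1, at 0.743 and 0.858. On chromosome 7 Tnni2 and Tnnt3 lie 54426 bases apart, with ratios of 13.0 and 9.62 and overlapping counting intervals. On chromosome 1 Tnni1 and Tnnt2 lie 25365 bases apart, with ratios of 20.1 and 5.83 and intervals that do not overlap.

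Transcripts were compared inside genes as a description, since a gene's level, which chose the members, is the sum over its transcripts. Myl1 has a pair of promoters that give a long and a short light chain. The short form, Myl1-202 with 150 codons, took 68.3% of the gene's TPM in replicate 1 and 63.7% in replicate 2, and the long form, Myl1-201 with 188 codons, took 28.5% and 22.1%. The short form was the more abundant in both libraries, although it rests on 16.8 expected counts in replicate 2.

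Tpm2-203 and Tpm2-202, which both encode 284 codons, took 51.5% and 48.3% of Tpm2 in replicate 1, and 71.4% and 23.2% in replicate 2. Mybpc1-202 and Mybpc1-201 took 43.9% and 31.9% in replicate 1, and 19.3% and 43.2% in replicate 2, so the leading form was not the same. Tnnt3-215 led its gene in replicate 1 with 46.5% and had 27.5% in replicate 2, where Tnnt3-204 had 32.5%. By expected counts Tnnt3-215 was still above Tnnt3-204 in replicate 2, at 34.8% against 26.8%. Tnnt1-201 led its gene with 48.4% in replicate 1 and was listed at 0 in replicate 2. Since the files give no counting error for these percentages, differences in genes with few counts in replicate 2 cannot be set against one.

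Other splits between near-identical transcripts are uncertain. The 3 transcripts of Myh3 each encode 1940 codons, and Myh3-202 was given 63.1% in replicate 1 and 0% in replicate 2. Ryr1-202 took 99.8% in replicate 1 and Ryr1-201 100% in replicate 2, transcripts of 15362 and 15352 bases. Atp2a1-201, the full-length pump, took 50.6% of TPM and 85.6% of counts in replicate 1, the rest going to a 681-base fragment, Atp2a1-202. In Tnni1 the leading transcript by TPM was Tnni1-207 in replicate 1 and Tnni1-202 in replicate 2, at 79.9% and 39.3%. Tnni1-202 is a 509-base model with 3.96 expected counts in replicate 2, where by counts Tnni1-206 led with 8.17. Myl4-202 held 46.6% of Myl4 in replicate 1 and was listed at 0 in replicate 2, where Myl4-204, a retained-intron transcript, held 47.7%. Neb and Ttn were dominated in TPM by short transcripts, since 69.8% of Neb in replicate 1 went to a noncoding transcript of 1000 bases and 48.7% of Ttn to Ttn-215 of 2159 bases, which took 11.9% of its counts.

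**Figure D4:**
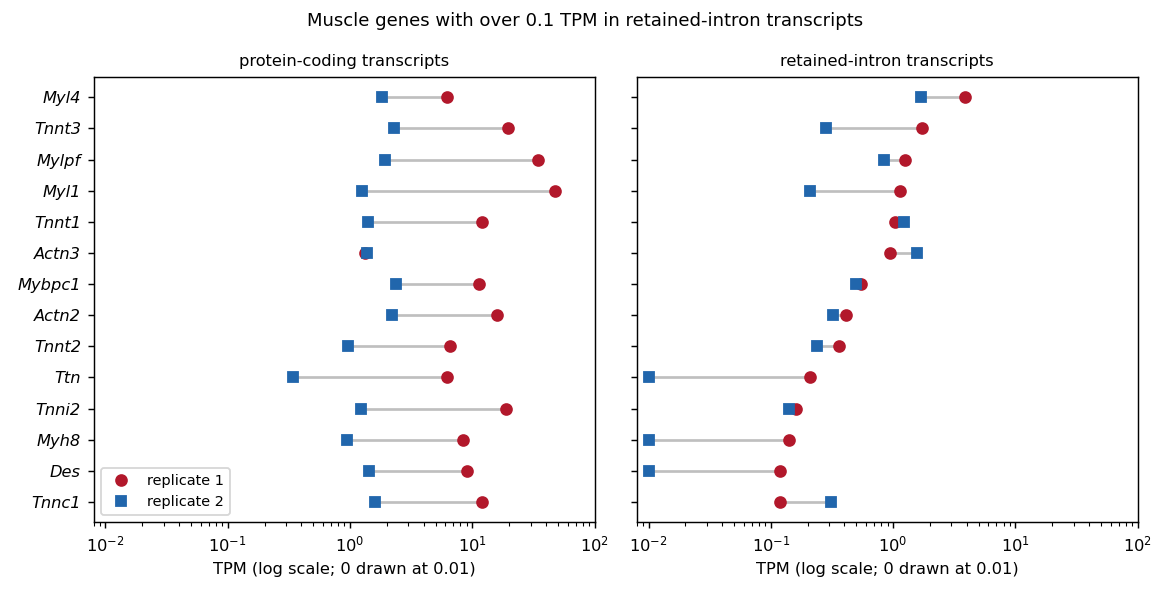
TPM (log scale, 0 drawn at 0.01) in protein-coding transcripts (left) and in transcripts annotated as retained intron (right) for the 14 muscle genes with over 0.1 TPM in the latter. On the left the replicate 1 circles lie to the right of the replicate 2 squares in all 14 genes but Actn3; on the right they lie close together for Tnnt1, Mybpc1, Actn2, Tnni2 and Mylpf, and the square exceeds the circle for Tnnt1, Actn3 and Tnnc1.

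Transcripts annotated as retained intron took a larger share of the residual signal in replicate 2. Summed over all 38 genes, protein-coding transcripts held 594 TPM (96.8%) in replicate 1 and 48.8 TPM (85.2%) in replicate 2, and retained-intron transcripts 12.0 TPM (1.96%) and 7.47 TPM (13.1%). TPM weighs short models more, and by expected counts the retained-intron share was smaller, at 0.875% and 4.24%. Over 15648 other genes with a coding transcript and 10 or more counts, that share was level between the libraries, at 5.65% and 5.70% by TPM and 3.24% and 3.32% by counts.

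Of the 17 muscle genes with signal in such transcripts, their share of TPM was higher in replicate 2 for 13 and higher in replicate 1 for 4, where among 5547 other genes with such signal it was higher in replicate 2 for 57.1% and in replicate 1 for 42.7%. The share exceeded 10% of TPM in 2 muscle genes in replicate 1 and in 12 in replicate 2, and in 48.4% and 49.5% of the other genes. By counts it exceeded 10% in 2 and 8 muscle genes, and in 32.1% and 33.0% of the other genes. These values are coarse, since 12 of the 17 genes had 5 or fewer such counts in replicate 2. They also depend on the choice of the genes, because any transcript that is level between the libraries gains share in a gene chosen for a lower level in replicate 2.

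Such transcripts were found in genes of both filaments and of the Z disc. In Tnnt1 these transcripts held 1.03 TPM in replicate 1 and 1.23 TPM in replicate 2, against 12.0 and 1.39 TPM in its coding transcripts. In Mylpf they held 1.24 and 0.85 TPM, against 34.6 and 1.92 TPM in coding transcripts. In Actn3, one of the genes near equality, the single such transcript held 0.94 and 1.58 TPM and the coding transcript 1.32 and 1.37 TPM. Myl4 had the largest amount, with 3.85 and 1.70 TPM. Unspliced or intronic RNA that overlaps these short models was not tested as a source, and the sources used here do not say whether counting used strand.

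A further 88 muscle genes in 6 lists, none of them members, were set beside these. Among the 84 that had 10 or more counts in either library, 43 passed 2-fold toward replicate 1 and 0 toward replicate 2, with a median log2 ratio of 1.10, against 0.00 over all genes. That share is again to be read beside the 2.82% of all genes that were over 2-fold higher in replicate 1. The lists were written with results of these data known and support nothing by themselves.

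The other sarcomere genes had 18 of 27 over 2-fold and a median log2 ratio of 1.82. They include Csrp3, a muscle LIM protein of the Z disc, with 5.99 and 0.19 TPM, and Myot, which encodes the Z disc protein myotilin, with 95 counts and 0 counts, at least 31.4-fold higher in replicate 1 with the 0 taken as 3 counts, where the lower bound of its counting interval was 25.0. Flnc, the muscle filamin, had 4.25 and 2.19 TPM, and Ldb3, a Z disc adaptor, 4.06 and 1.01 TPM. Myl6b was level at 4.00 and 4.07 TPM. Trim63, a muscle ubiquitin ligase, went the other way, with 0.64 and 1.02 TPM. Genes of muscle metabolism had 8 of 12 over 2-fold and a median of 2.12. Among them Eno3, the muscle enolase, had 13.6 and 5.07 TPM, and Pgam2, the muscle phosphoglycerate mutase, 11.4 and 2.78 TPM, whereas Fabp3, a fatty acid carrier also made in brain, had 243 and 281 TPM and Pfkm, a phosphofructokinase, 82.4 and 87.7 TPM.

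At the neuromuscular junction 6 of 8 genes were over 2-fold, with a median of 1.41. The fetal acetylcholine receptor subunit Chrng had 54 and 2 counts and the delta subunit Chrnd 37 and 0 counts, while the adult subunit Chrne had 2 counts in each library. Dok7, an adaptor of that synapse, was level at 10.5 and 10.1 TPM. The fusion and lineage list had 5 of 16 over 2-fold and a median of 0.32. In it Mymk, the fusion protein myomaker, had 2.92 and 0.18 TPM, and Pax7, the marker of muscle progenitors that is also made in the dorsal neural tube, 0.51 and 0.20 TPM. Pax3, an early factor related to Pax7, had 10.5 and 9.83 TPM, and Mef2c, a partner of the myogenic factors that neurons also make, 17.7 and 13.8 TPM. Itga7, Eya1 and Lbx1, all above Mymk in replicate 1, were near level. They had 7.51 and 7.31 TPM, 5.87 and 5.85 TPM, and 5.78 and 6.11 TPM. Msc, at 3.82 and 4.39 TPM, and Tcf21, at 1.21 and 1.59 TPM, were nominally higher in replicate 2.

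Genes of the muscle membrane had 4 of 9 over 2-fold and a median of 0.64. Dmd, which encodes dystrophin, was level at 25.6 and 23.8 TPM, whereas Cav3, the muscle caveolin, had 1.92 and 0.07 TPM. The other calcium release and excitability genes had 2 of 12 over 2-fold and a median of 0.17. Cacnb1, a calcium channel subunit, had 57.8 and 49.8 TPM, and Tmem38a, a channel of the reticulum, 33.7 and 35.2 TPM. The most abundant genes of both lists were thus near level.

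**Figure D5:**
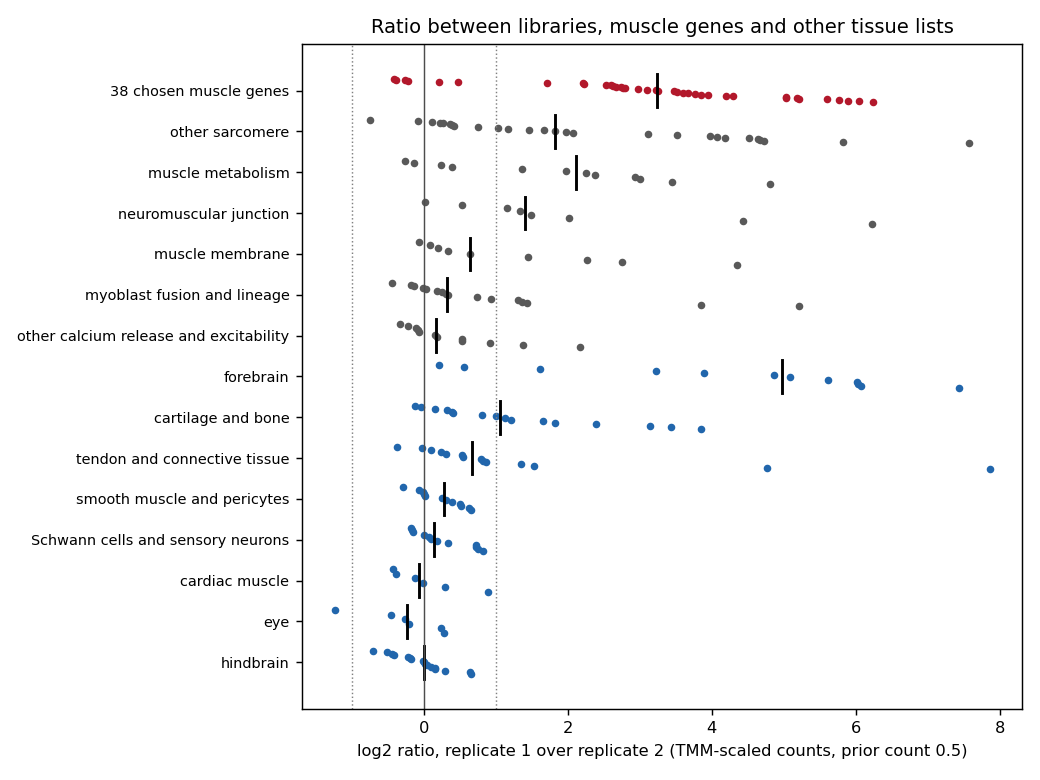
Log2 ratio of replicate 1 over replicate 2 for each gene with at least 10 counts in a replicate (points), with the list median (bar), for the 38 chosen muscle genes (red), 6 other muscle lists (grey) and 8 lists of other tissues (blue); dotted lines mark 2-fold. The medians run from 4.97 for forebrain and 3.24 for the chosen muscle genes to 0.01 for hindbrain and -0.23 for eye.

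Some genes of cartilage, bone and tendon were also higher in replicate 1, and their part in the result was not tested. Of 16 cartilage and bone genes 8 were over 2-fold higher in replicate 1, with a median log2 ratio of 1.06 and a summed level of 214 and 159 TPM over the list. Of 14 tendon and connective tissue genes 4 were so, with a median of 0.67 and a summed level of 837 and 455 TPM. Tnmd, which encodes tenomodulin of tendon, had 16.1 and 0.56 TPM, a ratio of 27.9 that lies within the range of the muscle genes. Col2a1, the collagen of cartilage, had 36.3 and 9.84 TPM.

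Several of the 38 genes are also made in heart, among them Actc1, Tnnc1, Tnnt2, Myh7, Myl4 and Casq2. Of 11 cardiac genes, 6 had enough counts and 0 of these were over 2-fold apart, with a median log2 ratio of -0.07 and a summed level of 8.07 and 8.42 TPM. The cardiac factor Nkx2-5 had 0 counts in both libraries, which allows up to 3 counts in each. The atrial light chain Myl7 had 5 and 2 counts. Of 12 smooth muscle and pericyte genes 0 were over 2-fold apart, with a median of 0.28, a summed level of 108 and 86.4 TPM, and Acta2 at 24.4 and 15.3 TPM. Schwann cell and sensory neuron genes had 0 of 12 over 2-fold and a median of 0.14, with summed levels of 94.1 and 80.0 TPM. Of the 6 eye genes with enough counts 1, Cryaa, was over 2-fold higher, in replicate 2, with 7 and 17 counts, and the list's summed level was 11.7 and 12.8 TPM.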

How the data were processed

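Total RNA-seq of 2 pooled hindbrain samples of 1 group was used. The authors deposited expected counts, TPM and FPKM per gene and transcript for each replicate, per the file headers, made against mm10 with GENCODE M4, per the submitters' processing notes. The sources used here do not name the quantification tool. The deposited interval bounds on TPM are treated as scores, since their level is not given, and isoforms were read from the percent per transcript that the authors deposited. Deposited TPM is scaled over all features, spike-ins included.

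Identifiers were joined without version to GENCODE M21, where 42462 of 43346 genes matched a symbol. Rounded expected counts were scaled by the TMM method of edgeR 4.0.16, run in R 4.3.3, leaving spike-ins out, with a prior count of 0.5 for log2 ratios. Intervals of folds are exact conditional binomial intervals. A count of 0 was taken as 3 for lower bounds. Ratios were called past 2-fold among genes with at least 10 counts in a replicate, and a detection minimum of 1 TPM was used. The TMM-scaled log2 ratio was also tested on simulated data with known folds, in well-counted genes only. That test did not cover low counts, the count filter, the detection minimum or the intervals. DESeq2 1.42.0 gave alternative size factors. Python 3.11.15, pandas 2.3.3, SciPy 1.17.1, Biopython 1.88 and matplotlib 3.10.9 did the rest. TPM intervals that do not overlap are called apart. Shared stretches were counted as 31-mers against all other genes' transcripts.

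The members, the 14 other lists, the 18 pairs and the rules were chosen with earlier results of these data known. Named genes are every member, both genes of each pair, and, for transcripts, members with at least 50 counts in replicate 1 and 2 or more coding transcripts above 10%. For each other list the rule was up to 4 genes with the highest TPM in replicate 1. It added up to 2 with the highest ratio of replicate 2 over replicate 1. Not every gene under that rule is named, and Mymk and Pax7 lie outside it. Others named, such as Myot, Cav3, Tnmd and Trim63, were chosen after their values were seen. Alternatives covered the detection minimum, unit, scaling, prior count, filters, fold limit, coding transcripts and each replicate left out.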

Additional observations from a re-analysis of the deposited data

How the results depend on the processing

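That 32 muscle genes were over 2-fold higher in replicate 1 held under DESeq2 size factors, spike-in totals, deposited TPM, a prior count of 2, no filter and coding transcripts alone, with 31 at a limit of 4-fold and 27 of the 30 whose mean reached 1 TPM. Their median log2 ratio of 3.24 became 2.80 under spike-in totals, which shift all ratios by -0.45, 3.04 with a prior count of 2 and 3.36 over those 30. The 17 members at 1 TPM in both libraries became 2 at 5 TPM and 11 with FPKM, and ranged from 17 to 32 when either replicate was left out. Of other muscle genes, 32 were at 1 TPM in both libraries and 16 at 5 TPM, and the 43 over 2-fold higher in replicate 1 became 34 under spike-in totals. The share of Myl1-202, 66.0% as the mean of both libraries, was 61.2% by expected counts and ranged from 63.7% to 68.3% over the single replicates. Single replicates gave 37.4% to 87.0% for developmental heavy chains, 23.0% to 74.9% for fast troponin C and 37.5% to 51.6% for fast troponin T. None of the 32 genes past 2-fold turned sign under these scalings, while Ryr1, with a log2 ratio of 0.20, stood at -0.25 under spike-in totals and Myh7, with 0.48, at 0.03. For single genes, spike-in totals moved 15 of 38 ratios beyond their counting interval and deposited TPM 5. No paired analysis was possible because all samples belong to 1 group. Depth limits Myf5, Myf6, Trdn, Mybph and Myog, which had 3 or fewer counts in replicate 2. No ratio here has replication on either side.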

Other observations

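Values of a few cartilage, bone and tendon genes follow, chosen after they were seen. The bone sialoprotein gene Ibsp stood at 7.47 TPM in replicate 1 and 0.49 TPM in replicate 2, while Comp, a cartilage and tendon matrix protein, stood at 2.36 and 0.25 TPM. Matn1, a cartilage matrilin, had 158 and 14 counts, a ratio of 11.2 (interval 6.47 to 20.9). In contrast Scx, the tendon transcription factor, was level at 4.49 and 4.42 TPM, and Sox9, a factor of cartilage and also of glia, stood at 44.7 and 38.6 TPM. The fibrillar collagens Col1a2 and Col3a1 were 1.77-fold and 1.74-fold higher in replicate 1, at 173 and 95.7 TPM and at 255 and 156 TPM.

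Among forebrain genes the difference between the libraries was also one of degree. Dlx1, a factor of ventral forebrain interneurons, had 363 and 5 counts and Six3, a factor of the anterior neural plate, 119 and 3 counts. Neurod6 and Lhx2, at 33.4 and 28.0 TPM and at 7.68 and 5.64 TPM, were close to level. These genes and the muscle genes share the same pair of libraries and say nothing separate about how the pools differed.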
